A study of Homo sapiens with 2 samples.

Results

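The simple-epithelium keratins examined here are KRT7, KRT8, KRT18, KRT19, KRT20 and KRT23, 6 genes of the keratin family, of which 5 were among the 17397 genes that both expression tables list. KRT20 has no entry in the tables, so only its sequence is described. The 6 genes were chosen by family membership with the expression values of these same 2 libraries already known, so the values of the contrast between the genotypes are a description and no test of it is given. RNA-Seq had been carried out on 1 library of wildtype (WT) H1 cells and 1 library of MEIS2-/- H1 cells, both taken at day 4 of hematopoietic differentiation. H1 is an established human embryonic stem cell line. Both cultures had received activinA (50 ng/ml) and BMP4 (40 ng/ml) over 2 days and then VEGF (40 ng/ml) and bFGF (50 ng/ml) over 2 further days. MEIS2 encodes a homeobox transcription factor. The MEIS2-/- cells came from H1 cells that carried a lentiviral Cas9 and guide RNA vector, were selected with puromycin and were grown from single cells, whereas the labels describe the WT cells only as H1. The labels do not say which deleted clone was sequenced. With 1 library per genotype, genotype and culture cannot be told apart, and no value has a replicate error. MEIS2 mRNA, the check of the labels, was at 10.85 FPKM in the WT library and 3.44 FPKM in the MEIS2-/- library. FPKM is a fragment count scaled to transcript length and to the total of mapped fragments, so levels of different genes can be set beside each other.

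Keratins build the intermediate filaments of epithelial cells. Each filament is assembled from pairs of 1 acidic type I chain and 1 basic type II chain, and a chain without a partner is degraded. KRT8 (type II) and KRT18 (type I) form the first pair made in the embryo and are found in simple, that is single-layered, epithelia, in trophectoderm and in cultured pluripotent stem cells. KRT19 is a small type I chain that lacks the usual tail and shares KRT8 as a partner. KRT7 is a type II chain of ducts, amnion, trophoblast and mesothelium, KRT20 a type I chain of intestinal and urothelial cells, and KRT23 a type I chain found in some glandular epithelia.

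The type I members are printed here where the central helix of the protein begins, a stretch conserved among intermediate filament proteins, to show how alike the genes of 1 class are. The sequences run 5′ to 3′ on the coding strand of GENCODE 29 transcripts (GRCh38), and capitals mark the 6 codons of the helix-start motif.
KRT18: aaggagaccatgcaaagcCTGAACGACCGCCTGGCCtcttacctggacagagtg
KRT19: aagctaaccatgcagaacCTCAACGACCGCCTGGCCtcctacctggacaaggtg
KRT23: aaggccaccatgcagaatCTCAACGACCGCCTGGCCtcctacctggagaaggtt
KRT20: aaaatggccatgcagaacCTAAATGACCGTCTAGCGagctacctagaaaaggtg

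In the 18 capital bases KRT19 and KRT23 did not differ. KRT18 differed from KRT19 at 1 position, and KRT20 differed from each of the other type I genes at 5 positions. Over the whole aligned coding sequence, KRT7 and KRT8, the type II members, were identical at 76.8% of bases and KRT18 and KRT19 at 67.7%, while KRT8 and KRT18, the classical pair, were identical at 67.1%. The KRT18 stretch lies in exon 1 at chr12:52949414-52949467 on the plus strand. On chromosome 17, all on the minus strand, the KRT19 stretch lies in exon 1 at chr17:41527954-41528007, the KRT23 stretch in exon 2 at chr17:40936334-40936387 and the KRT20 stretch in exon 1 at chr17:40884922-40884975. KRT18 is the exception among the type I genes, since it lies beside KRT8 on chromosome 12 and not in the type I cluster on chromosome 17.

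The 5 listed simple keratins moved in 2 ways. KRT8, KRT18 and KRT19, which were among the most abundant mRNAs of the cells, were each lower in the MEIS2-/- library by a like factor, while KRT7 and KRT23, which were at or near 0 in the WT library, were higher. A difference of at least 2-fold after adding 0.1 FPKM to each value was counted, among genes that reached 1 FPKM in either library, and all 5 listed members reached it. KRT7 and KRT23 reached it only through the MEIS2-/- library. By this count 3 members were lower and 2 were higher, against 7.97% of the 13075 genes compared that were lower and 7.84% that were higher. The choice of members drew on this contrast, so nothing is read from these counts.

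Among the type II chains, KRT8 was at 2871.22 FPKM in the WT library and 1227.58 FPKM in the MEIS2-/- library. Ordered by level, it held rank 4 of all 17397 genes in the WT library, and rank 34 after MEIS2 deletion. The MEIS2-/- level was 42.8% of the WT level, a log2 fold change of -1.23 on the scale of log2(FPKM + 0.1), on which all further log2 fold changes are given. KRT7, the other type II chain, was at 0.51 FPKM in the WT library and 16.68 FPKM in the MEIS2-/- library, a log2 fold change of 4.78. Without the added 0.1 FPKM the MEIS2-/- level of KRT7 was 32.7 times the WT level. Its rank went from 13603 to 4576. The amount stayed small beside KRT8, since KRT7 made up 1.34% of the type II FPKM of the MEIS2-/- library, from 0.0178% in WT cells.

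Among the type I chains, KRT19 was at 2273.59 FPKM in the WT library and 987.07 FPKM in the MEIS2-/- library, with a log2 fold change of -1.20. KRT18 was at 1200.32 FPKM and 538.43 FPKM, with a log2 fold change of -1.16. Among all genes KRT19 went from rank 10 to rank 58 and KRT18 from rank 41 to rank 114. KRT23 was listed at 0 in the WT library and at 1.02 FPKM in the MEIS2-/- library, just above the filter of 1 FPKM, and no fold is given against a listed 0. Multiplying the MEIS2-/- values by 0.923, which sets the median log2 ratio of well-expressed genes to 0, put KRT23 below the filter.

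**Figure D1:**
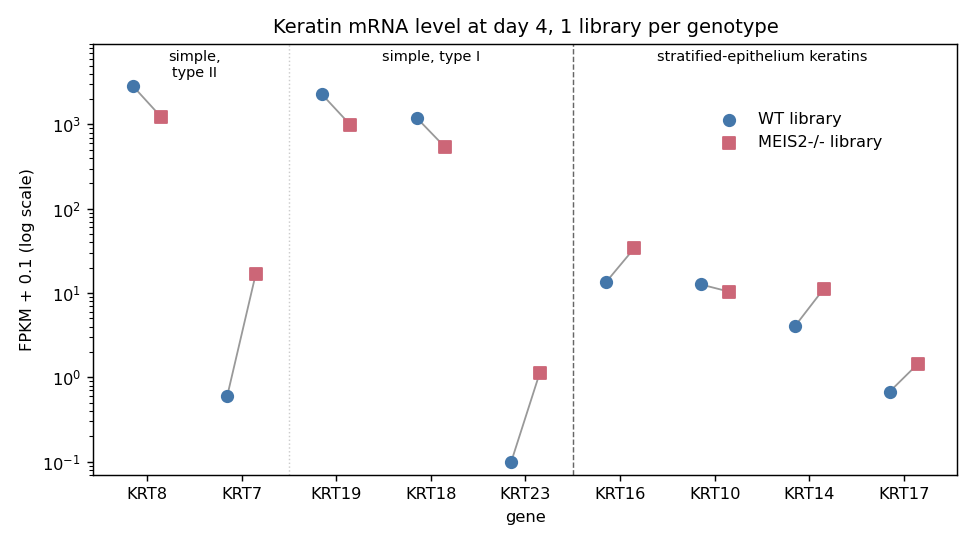
FPKM plus 0.1 on a log axis for the 5 listed simple keratins and the 4 other keratins that reached 1 FPKM in either library; circles are the WT library, squares the MEIS2-/- library, with no error bar because each genotype has 1 library. KRT8, KRT19 and KRT18 lie highest and are lower in the MEIS2-/- library, KRT7 and KRT23 start at 0.51 and 0 FPKM and are higher, and the level of KRT23 in the WT library is the added 0.1 alone.

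The abundant keratins kept their proportions to one another. KRT8 was 2.39 times as abundant as KRT18 in the WT library and 2.28 times in the MEIS2-/- library. The ratio of KRT8 to KRT19 was 1.26 and 1.24, and that of KRT19 to KRT18 was 1.89 and 1.83. Summed by type, the type II chains KRT7 and KRT8 came to 2871.73 FPKM in the WT library and 1244.26 FPKM in the MEIS2-/- library. The type I chains KRT18, KRT19 and KRT23 came to 3473.91 FPKM and 1526.52 FPKM. Type II was therefore 2.31-fold lower and type I 2.28-fold lower in the MEIS2-/- library. The ratio of type II to type I mRNA went from 0.827 in WT cells to 0.815 in MEIS2-/- cells. In both libraries KRT8, KRT18 and KRT19 together made up nearly all of the simple keratin FPKM, with 99.99% in WT cells and 99.4% in MEIS2-/- cells. The simple keratins took 1.42% of the FPKM of all genes in WT cells and 0.629% in MEIS2-/- cells. In bulk RNA, fewer keratin-bearing cells and less keratin mRNA per cell cannot be told apart.

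**Figure D2:**
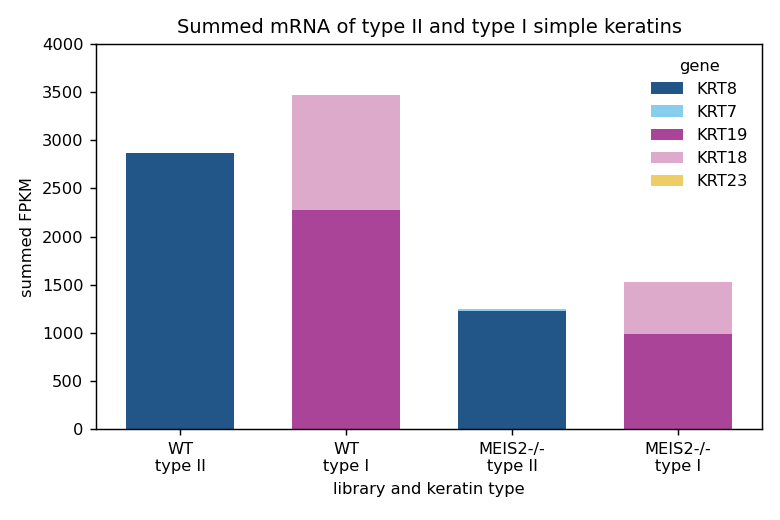
Summed FPKM of the type II (KRT8, KRT7) and type I (KRT19, KRT18, KRT23) simple keratins in each library, stacked by gene on a linear axis from 0. Both stacks are lower in the MEIS2-/- library, at 1244.26 and 1526.52 FPKM against 2871.73 and 3473.91 FPKM. The shares of KRT8, KRT18 and KRT19 within their stacks change little. KRT7 goes from 0.0178% to 1.34% of the type II stack and KRT23 from 0 to 0.0668% of the type I stack.

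The abundant keratins were compared with the other abundant genes. Of the 62 genes at 1000 FPKM or more in the WT library, a cut chosen after the values were seen, 7 were at least 2-fold lower in the MEIS2-/- library and 0 were at least 2-fold higher, and the median log2 fold change of the 62 was -0.10. The lower genes made up 11.3% of the 62, against 7.97% of all genes compared, whose median was 0.12. The cut is on the WT level alone, which favours genes that are lower in the other library. KRT8, KRT18 and KRT19 were 3 of these 7, so nothing is read from this share. The other 4 were VIM, which encodes the mesenchymal intermediate filament protein vimentin, the glycolytic enzyme genes ALDOA and ENO1, and the glucose transporter gene SLC2A3. VIM was at 3048.28 FPKM in the WT library and 1014.25 FPKM in the MEIS2-/- library, with a log2 fold change of -1.59. The summed simple keratins were 2.08 times the VIM level in the WT library and 2.73 times in the MEIS2-/- library. By distance of the log2 levels over the 2 libraries, the genes nearest to KRT8 were ENO1 (2617.47 and 1200.26 FPKM, distance 0.14), VIM (distance 0.29) and KRT19 (distance 0.46). A distance over 2 libraries is weak evidence of likeness.

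**Figure D3:**
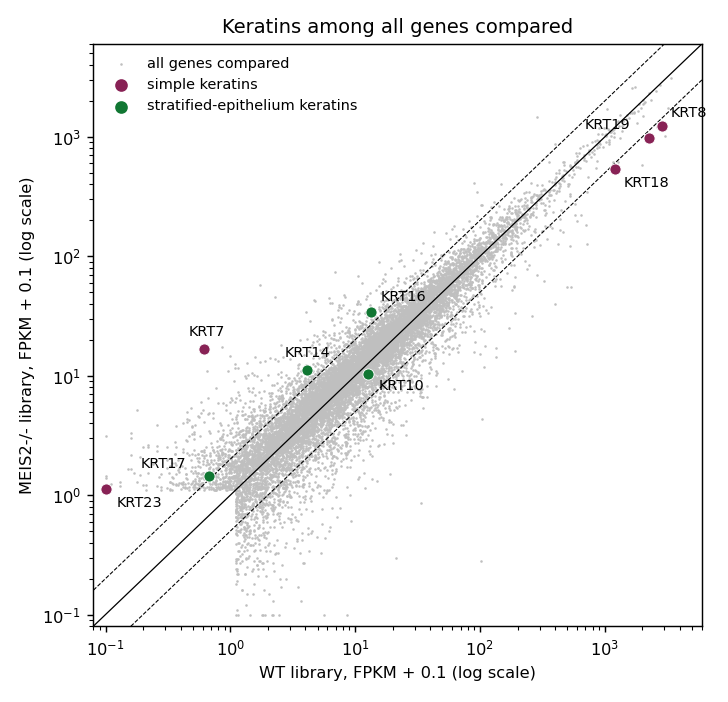
FPKM plus 0.1 of the 13075 genes compared, WT library against MEIS2-/- library on log axes, with the solid line at equal values and the dashed lines at 2-fold. KRT8, KRT18 and KRT19 sit at the high end just beyond the lower dashed line, KRT7 and KRT23 far above the upper line at low WT levels, and KRT14, KRT16 and KRT17 just beyond the upper line.

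The other keratins were far less abundant. Besides the 5 members, 18 keratin genes were listed, of the stratified-epithelium and hair lists and KRT222, and 4 of the 18 reached 1 FPKM in either library. KRT16, a type I keratin of stressed and proliferating epidermis, was at 13.32 FPKM in the WT library and 33.91 FPKM in the MEIS2-/- library. KRT14, the type I keratin of basal epidermal cells, was at 3.98 FPKM and 11.06 FPKM, and KRT17, of hair follicle and basal cells, at 0.58 FPKM and 1.36 FPKM. Their log2 fold changes were 1.34, 1.45 and 1.10, and KRT17 lost the 2-fold mark when the median log2 ratio was set to 0. KRT10, of differentiating epidermis, was at 12.59 FPKM and 10.31 FPKM, a log2 fold change of -0.29. The usual type II partner of KRT14, KRT5, was at 0.01 FPKM and 0.03 FPKM, and 0 of the 4 listed hair keratins reached the filter. The 18 other keratins summed to 31.03 FPKM in the WT library and 57.92 FPKM in the MEIS2-/- library, against 6345.64 FPKM and 2770.78 FPKM for the simple keratins. KRT14 and KRT16 are near-identical in stretches, which limits how far their values can be told apart. Of the 50-base words of the KRT14 transcript, 11.2% also occur in KRT16, and 11.3% of the KRT16 words occur in KRT14. Of the KRT17 words, 1.77% occur in listed genes on its own strand and 17.4% in any other gene, KRT17 pseudogenes among them.

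Shared sequence bears on the members as well. Of the 50-base words in the KRT8 transcripts that the tables list, 34.0% occur in the transcripts of another GENCODE 29 gene. Of the 37 other genes that share such words on the same strand, 33 are keratin pseudogenes. For KRT18 the share was 45.6%, and all 43 such genes are keratin pseudogenes. None of the KRT8 or KRT18 pseudogenes has an entry in the tables, so the treatment of their reads is not visible. KRT7 shared 10.8% of its words with other genes, nearly all of them on the opposite strand with KRT7-AS, and KRT19 shared 1.79%. KRT7 shared 0.587% with listed genes on its own strand. Of 17 annotated KRT8 transcripts, 8 reach into the KRT18 gene, which is read from the opposite strand, and 20.6% of the KRT18 words occur in reverse in KRT8 transcripts. The labels state no strand setting, so fragments from this overlap cannot be assigned to 1 of the 2 genes. KRT19, which lies on another chromosome, had a log2 fold change of -1.20, beside -1.23 for KRT8 and -1.16 for KRT18. The part of shared sequence in these values was not tested.

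Genes beside the keratin loci were described to see whether the difference extended along the chromosome. Beside KRT8 and KRT18, 5 of the 10 nearest listed genes reached the filter, 0 were at least 2-fold lower and 1 was at least 2-fold higher. That gene was SOAT2, a cholesterol esterifying enzyme, at 1.92 FPKM in the WT library and 10.09 FPKM in the MEIS2-/- library. EIF4B, the next gene after KRT18, was at 174.45 FPKM and 161.65 FPKM. Beside KRT7, 4 of 10 reached the filter, and the 2 past the threshold were both lower, the adaptor gene TAMALIN (26.72 and 9.81 FPKM) and the nuclear receptor gene NR4A1 (41.88 and 17.45 FPKM). Beside KRT19, 4 of 10 reached the filter, and the 3 past the threshold were KRT14, KRT16 and KRT17, all higher, opposite to KRT19. Beside KRT23, 3 of 10 reached the filter and 0 were past the threshold. Among neighbours that reached the filter, 0 were past 2-fold in the direction of the member they lie beside. Over all genes compared, 7.97% were at least 2-fold lower and 7.84% higher. With so few neighbours nothing is read from the 0. Below the filter, KRT80 beside KRT7 (0.06 and 0.28 FPKM) and CCR7 (0.14 and 0.44 FPKM) and KRT33B (0 and 0.11 FPKM) beside KRT23 were higher. The motifs searched on both strands were TGACAG, which MEIS proteins bind, GATAAG, which blood and endoderm GATA factors bind, CAGGTG, the E-box of SNAI proteins, CATTCC, which TEAD factors of the Hippo pathway bind, and CCAAT of basal promoters. The TATA motif was searched as TATAAA, the motif of AP-1 factors as TGANTCA, that of SP1 and KLF factors as GGGCGG, and that of TFAP2 factors as GCCNNNGGC. RefSeq promoter windows (GRCh38.p14), which span the transcript start, were used for KRT8 and KRT20, 2 of the 6 members. The KRT8 window belongs to an upstream start, not to the first exon of the main transcript, and of the 9 motifs it held 1, the TEAD motif, which 14.03% of all 35116 windows hold. The MEIS motif, held by 15.8% of windows, was not in it. The KRT20 window held CCAAT (34.6% of windows) and the E-box (20.6%) and none of the other 7 motifs.

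Keratin filaments are anchored at desmosomes, which join cells, and at hemidesmosomes, which bind the cell to matrix. Among these anchoring genes that reached the filter, 0 were at least 2-fold lower. The shares over all genes compared were 7.97% at least 2-fold lower and 7.84% higher. Of 14 desmosome genes 9 reached the filter, 3 were at least 2-fold higher and 3 were lower by less than 2-fold, and the median log2 fold change was 0.35, against 0.12 over all genes compared. The 3 were PKP3, a plakophilin (9.46 and 32.83 FPKM in the WT and MEIS2-/- library), DSC2, a desmosomal cadherin (7.34 and 17.19 FPKM), and DSP, the desmoplakin that binds keratin (24.75 and 51.19 FPKM). DSP had a log2 fold change of 1.05 and lost the 2-fold mark under either rescaling of the libraries. Of 9 hemidesmosome genes 7 reached the filter, 3 were at least 2-fold higher and 1 was lower by less than 2-fold, with a median of 0.96. ITGA6, the integrin alpha chain of hemidesmosomes, was at 11.18 FPKM and 25.45 FPKM. The lower one was PLEC, which encodes plectin, the linker of keratin to hemidesmosomes, at 52.34 FPKM and 43.09 FPKM. Of 13 other keratin-binding genes 12 reached the filter and 1 was past the threshold, EPPK1, the cytolinker epiplakin, at 2.35 FPKM and 6.28 FPKM. That count is near the 7.84% of all genes compared, so nothing is read from it.

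Genes that mark simple epithelium outside the keratin family were mostly higher in the MEIS2-/- library, against KRT8, KRT18 and KRT19 and with KRT7 and KRT23. All 27 epithelial adhesion and tight junction genes of the list reached the filter, and the 27 were higher. The log2 fold changes ran from 0.20 to 2.94 around a median of 1.01. Past 2-fold were 15 genes, against 7.84% of all genes compared that were at least 2-fold higher. After either rescaling, the 27 were still higher and 12 were at least 2-fold higher. CDH1, which encodes E-cadherin, was at 10.68 FPKM in the WT library and 33.35 FPKM in the MEIS2-/- library. CLDN4, a claudin of tight junctions, was at 7.95 FPKM and 38.73 FPKM, and ST14, a membrane serine protease of epithelia, at 6.41 FPKM and 29.81 FPKM. In the WT library, CDH1 was thus at 10.68 FPKM beside a KRT8 level of 2871.22 FPKM. Of 25 genes of epithelial transcription and splicing regulators, 21 reached the filter, 13 were at least 2-fold higher and 0 lower, with a median of 1.67. Of the 21, 18 were higher and 3 were lower by less than 2-fold. After either rescaling 12 were at least 2-fold higher. The largest differences among those at 5 FPKM or more in either library were in TFAP2C (10.41 and 68.29 FPKM), GRHL3 (0.92 and 6.45 FPKM) and GRHL2 (0.90 and 5.90 FPKM), transcription factors of epithelia. The lists were written with earlier results of these libraries known, and their counts are descriptions.

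**Figure D4:**
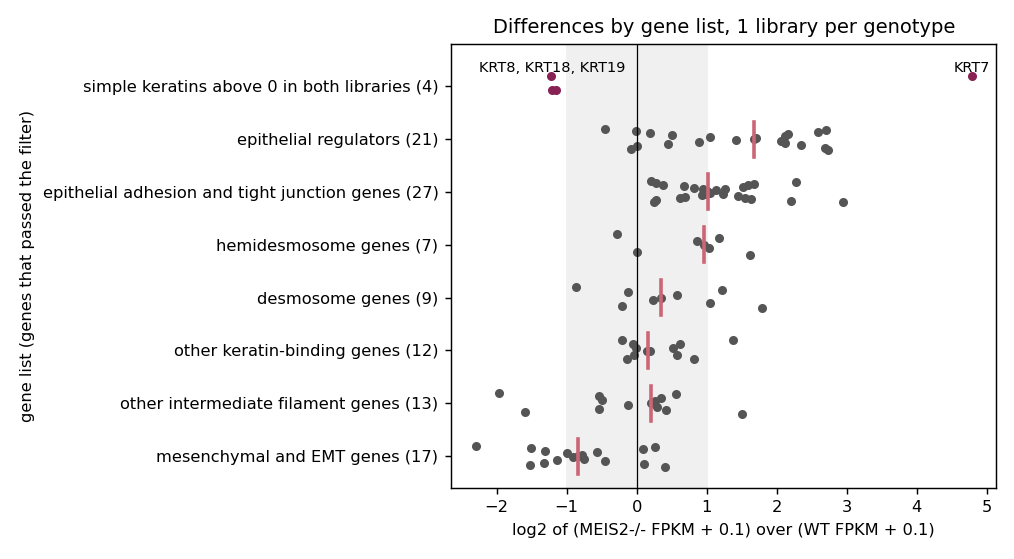
Log2 fold change of each gene that reached 1 FPKM in either library, by list, with the number of genes in brackets; each point is a gene, the red bar is the median of a list and the grey band spans less than 2-fold. KRT8, KRT18 and KRT19 lie between -1.23 and -1.16 while all 27 adhesion genes lie above 0; KRT23, at 0 in the WT library, is left out.

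The other filament genes were mixed. Of 16 other intermediate filament genes 13 reached the filter, 7 of them higher and 6 lower, with a median log2 fold change of 0.20. Of the 13, 2 were at least 2-fold lower, VIM and DES, and 1 was at least 2-fold higher, BFSP1. DES, which encodes the muscle filament protein desmin, was at 8.53 FPKM and 2.10 FPKM, and BFSP1, a lens filament gene, at 2.97 FPKM and 8.59 FPKM. Of 17 mesenchymal genes, 7 were at least 2-fold lower and 0 at least 2-fold higher, with a median of -0.84. The share at least 2-fold lower over all genes compared was 7.97%. COL1A1, COL1A2 (collagen chains) and SNAI1, a repressor of epithelial genes, had log2 fold changes of -1.53, -1.32 and -1.30. Of the 17, 13 were lower and 4 were higher, each of the 4 by less than 2-fold. The 4 included the most abundant gene of the list, FN1, which encodes fibronectin, at 899.77 FPKM and 1194.54 FPKM, with MMP2, COL3A1 and CDH2.

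Simple keratins are made by several cell types that such a culture could hold, and markers of these moved between the libraries. The counts in this and the next paragraph stand beside 7.84% of all genes compared that were at least 2-fold higher and 7.97% lower. Of 13 trophectoderm markers, 6 are also on the list of epithelial regulators. Of the 13, 7 reached the filter, 4 were at least 2-fold higher and 0 at least 2-fold lower. Of these 7, 6 were higher and 1, HAND1, was lower by less than 2-fold. CDX2 was at 4.83 FPKM and 21.24 FPKM and TFAP2A, also a surface ectoderm marker, at 4.52 FPKM and 19.13 FPKM, and GCM1 and ELF5 did not reach the filter. ELF5, VGLL1 and XAGE2 were at 0 in the WT library, and CGA was at 0 in the MEIS2-/- library. The trophectoderm list summed to 434.66 FPKM in the WT library and 435.06 FPKM in the MEIS2-/- library. Most of it was HAND1 (357.53 and 265.24 FPKM), which mesoderm also expresses, and GATA3 was at 55.06 FPKM and 55.40 FPKM. Of 10 amnion markers 9 reached the filter, 4 were at least 2-fold higher and 0 at least 2-fold lower. Of the 9, 6 were higher and 3, BAMBI among them, were lower by less than 2-fold. GABRP was at 1.06 FPKM and 11.42 FPKM, IGFBP3 at 4.22 FPKM and 28.54 FPKM and WNT6 at 3.81 FPKM and 14.77 FPKM, while ISL1 was at 6.66 FPKM and 10.32 FPKM. The amnion list summed to 577.74 FPKM and 552.23 FPKM, most of it BAMBI (543.77 and 465.85 FPKM), and TFAP2B was at 0 in the WT library. All 14 visceral endoderm markers, of which 3 are also on another list, were higher, 12 at least 2-fold. FGB was at 2.16 FPKM and 45.66 FPKM, TTR at 0.38 FPKM and 5.31 FPKM and HNF4A at 6.40 FPKM and 29.08 FPKM. The 14 summed to 572.69 FPKM and 1275.76 FPKM. Of 7 surface ectoderm markers 5 reached the filter and the 5 were at least 2-fold higher, led by DLX5 at 0.97 FPKM and 9.01 FPKM. The list summed to 10.87 FPKM and 48.58 FPKM, KRT5 was near 0 and TP63 was at 0.10 FPKM and 0.83 FPKM. Of the 7, 5 are on another list as well.

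Markers of mesothelium and endothelium that reached the filter were mostly lower, and those of the remaining types were mixed. Of 7 mesothelium markers 4 reached the filter, 2 were at least 2-fold lower and 0 higher, namely TCF21 at 8.64 FPKM and 3.36 FPKM and LRRN4 at 21.76 FPKM and 10.44 FPKM. The list summed to 55.10 FPKM and 29.48 FPKM. Of 9 endothelium markers 8 reached the filter, 5 were at least 2-fold lower and 0 higher, with KDR at 323.77 FPKM and 61.98 FPKM, ERG at 6.82 FPKM and 1.43 FPKM and SOX7 at 40.73 FPKM and 11.25 FPKM. The list summed to 556.13 FPKM and 357.78 FPKM, and SOX17, also on the lists of definitive and visceral endoderm, was higher at 141.01 FPKM and 264.03 FPKM. Of 8 blood markers 4 reached it, with 2 at least 2-fold lower and 1 higher, and the other 4, below the filter, had higher values in the MEIS2-/- library. The 8 summed to 9.43 FPKM and 8.12 FPKM. Of 6 mesoderm markers, 4 were lower, 2 of them past 2-fold, MESP1 (8.12 and 3.09 FPKM) and TBX6 (5.38 and 2.03 FPKM). The other 2 were past 2-fold higher, TBXT (2.44 and 10.74 FPKM) and MIXL1 (2.33 and 6.47 FPKM), and the list summed to 599.29 FPKM and 420.11 FPKM. Of 7 definitive endoderm markers 4 were lower and 3 higher, with a median log2 fold change of -0.51. At least 2-fold lower were 2, HHEX (18.74 and 4.17 FPKM) among them. At least 2-fold higher was 1, CXCR4 (24.13 and 50.90 FPKM), which lost the mark under either rescaling. The list summed to 236.02 FPKM and 373.29 FPKM, most of it SOX17. Of 8 markers of undifferentiated cells, 7 reached the filter, 4 of them higher and 3 lower, with a median log2 fold change of 0.13. At least 2-fold higher were 2, L1TD1 (10.43 and 41.03 FPKM) and ZFP42 (25.13 and 60.10 FPKM). At least 2-fold lower was 1, USP44 (1.16 and 0.36 FPKM). DNMT3B (76.91 and 45.35 FPKM) and CRIPTO (24.82 and 20.66 FPKM) were lower by less than 2-fold. SOX2, a core pluripotency factor, was near 0 at 0.09 FPKM and 0.15 FPKM. The 8 summed to 347.47 FPKM and 414.24 FPKM. The part of any of these cell types in the keratin values was not tested.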

How the data were processed

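RNA-Seq was performed by BGI from Trizol-extracted total RNA with an Illumina TruSeq kit. The submitters' processing notes name BWA, Bowtie, RSEM and hg19, without roles or versions. The authors deposited 1 FPKM value per gene and library, rounded to 2 decimals, for genes listed by NCBI Gene number. Of 17397 genes, 17365 were matched to a symbol by that number. Low values of genes with 1 transcript were compared with whole-read steps. Their agreement, where 1 is complete, was at best 0.0648 in the WT and 0.205 in the MEIS2-/- library, so depth is unknown and no counting interval is given. Log2 fold changes used a pseudocount of 0.1 FPKM, for 13075 genes that reached 1 FPKM in either library. Values were used as deposited. The median log2 fold change was 0.12, and both rescalings tried (median ratio, and trimmed mean of log ratios with 30% of ratios and 5% of levels trimmed per side) lower each log2 value by 0.12 and 0.10. No test was possible with 1 library per genotype.

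The members and lists were chosen with earlier results of these data known. Named were the members, MEIS2, VIM, other keratins at 1 FPKM or more, per list the 3 largest differences per direction past 2-fold at 5 FPKM or more, the keratin neighbours past 2-fold and the 3 genes nearest to KRT8. Genes named outside this rule were chosen after their values were seen, among them KRT5, ALDOA, SLC2A3, EIF4B, PLEC, ISL1, BAMBI, TP63, SOX2, SOX17, FN1, MMP2, COL3A1, CDH2, KRT80, CCR7, KRT33B and those at 0 or said not to reach the filter. HAND1, GATA3, USP44, DNMT3B and CRIPTO were chosen in the same way. Coordinates and sequences came from GENCODE 29 (GRCh38) and RefSeq (GRCh38.p14), since the tables hold none. Sequence of the type II genes is not reported here. Python 3.11.15, numpy 2.4.6, pandas 2.3.3, Biopython 1.88 and matplotlib 3.10.9 were used, and the counts were tested on simulated data.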

Additional observations from a re-analysis of the deposited data

How the results depend on the processing

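With 1 library per genotype there is no replicate spread, so a value was taken to have moved when it crossed the 2-fold mark, a count when it changed by over 1.5 times and a share when it changed by 5 percentage points. The 4 log2 fold changes of KRT7, KRT8, KRT18 and KRT19 kept their sign and stayed past 2-fold with pseudocounts of 1 and 0.01 and under both rescalings. The count of lower simple keratins, 3, became 0 at a 4-fold threshold. The count of higher simple keratins, 2, became 1 with a filter at 5 FPKM, with the median log2 ratio set to 0 and with TMM scaling, because KRT23 fell below the filter. The count of higher other keratins, 3, became 0 at a 4-fold threshold and 6 without a filter, the added genes being at or near 0 in the WT library. Without KRT8 and KRT19, the highest of each type, the type II log2 fold change reversed to 5.03, that of KRT7 alone, and the type II share of simple keratin FPKM went from 45.3% to 0.0425% in the WT library and from 44.9% to 3.00% in the MEIS2-/- library. Over all genes, the 1025 higher and 1042 lower became 2353 and 1890 at 1.5-fold, 194 and 241 at 4-fold, 554 and 598 with a filter at 5 FPKM and 623 and 693 with a pseudocount of 1, and the higher became 1567 without a filter. The type II and type I sums therefore rest on KRT8 and on KRT18 with KRT19. No paired analysis was possible because each genotype has 1 library. The alternatives were listed before the tables were opened in this work, but with earlier results known.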
